A study of Homo sapiens with 12 samples.

Results

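Transcripts of the NF-κB system were followed in the established human melanoma line A375 after treatment with DdBIC, with hemin or with both. The members were 10 genes of the 20263 in the table, found by their symbols. They are the subunit genes NFKB1, NFKB2, RELA, RELB and REL, the IκB genes NFKBIA, NFKBIE and NFKBIZ, and the feedback genes TNFAIP3 and BIRC3. All 10 passed the filter on low counts, as did 14287 genes of the table. The members were chosen by name with results of these libraries in view. Among those results was the log2 fold change of TNFAIP3 in DdBIC against Ctrl, one of the highest, and which values led to the choice of the others is not recorded. The values of the members in DdBIC against Ctrl, in DdBIC+Hemin against DdBIC and in the difference between the DdBIC effects with and without hemin are therefore given as a description, with no p-value. How many members lie past the threshold there is given only beside the share of all genes, and nothing is read from it. Tests on the members are given for DdBIC+Hemin against Hemin, whose 6 libraries do not enter DdBIC against Ctrl, and for Hemin against Ctrl and DdBIC+Hemin against Ctrl, which share the Ctrl libraries with it. The DdBIC+Hemin and Hemin libraries do enter the other described values, so these tests are not independent of the choice of members.

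NF-κB is a family of transcription factors that work as dimers. In resting cells the dimers are held in the cytoplasm by IκB proteins. Signals from TNF, interleukin-1 or cell stress activate the IκB kinase (IKK), which marks IκB for destruction, and the freed dimers enter the nucleus and switch on genes of inflammation and survival. Among those genes are the system's own brakes, IκBα (NFKBIA) and the ubiquitin-editing enzyme A20 (TNFAIP3), so that a burst of activity raises its own inhibitors. NFKB1 and NFKB2 encode the precursors p105 and p100, which are processed to the DNA-binding subunits p50 and p52, while RELA, RELB and REL carry the domains that activate transcription. In melanoma NF-κB is known for its link to survival and to the secretion of chemokines.

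The study asked how the cells respond to DdBIC (dodecyl 1H-benzo[d]imidazole-5-carboxylate, written DBIC in the sample labels) and what hemin does to that response. Each of the 4 groups, Ctrl, DdBIC, Hemin and DdBIC+Hemin, had 3 samples of the A375 line, all with the genotype given as WT. Hemin is a form of heme. The dose and duration of the treatments used for RNA-seq, and the content of the Ctrl treatment, are not given in the sources used here. Nothing in the labels says that the 3 samples of a group came from separate cultures, so p-values measure only the spread between these samples, which may be technical, and all groups rest on 1 cell line. The total count per library was 37951275 to 44358912. Of 8 melanocyte and melanoma markers, 4 were over 1 CPM (read count as a share of the library total, scaled with the TMM factors of edgeR) in every library, with SOX10 at 548 to 769 CPM, whereas TYR had 0 to 2 counts. Among 6 immune markers, PTPRC, the gene of the pan-leukocyte antigen CD45, had 0 counts in every library. The immune list summed to 29.5 to 30.5 CPM in Ctrl libraries, to 23.5 to 29.1 in DdBIC, to 27.5 to 29.3 in Hemin and to 29.8 to 32.5 in DdBIC+Hemin, most of it from CD68. The melanocyte list summed to 648 to 676 CPM in Ctrl and 742 to 803 CPM in DdBIC, and to 575 to 583 CPM in Hemin and 582 to 672 CPM in DdBIC+Hemin, most of it from SOX10. S100B of that list went the other way, with 8.71 to 10.6 CPM in Ctrl and 6.59 to 8.23 CPM in DdBIC. A list of 4 fibroblast markers, mainly PDGFRB, summed to 19.3 to 20.2 CPM in Ctrl, 15.7 to 16 CPM in DdBIC, 18.7 to 18.9 CPM in Hemin and 17 to 19.3 CPM in DdBIC+Hemin. The endothelial and keratinocyte lists summed to at most 3.92 CPM in any library. The part of these lists in the results was not tested. HMOX1, which encodes the inducible heme oxygenase, was at 7.99 to 9.19 CPM in Ctrl and 7.26 to 8.73 CPM in DdBIC. It was at 61.9 to 65.5 CPM in Hemin and higher still, at 146 to 188 CPM, in DdBIC+Hemin. Bulk RNA cannot tell a change in RNA per cell from a change in the share of cells that make it.

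The promoters of the members were looked at first, because many genes that answer NF-κB carry a short κB element near their start. RefSeq promoter windows on GRCh38.p14, from 250 bases before to 50 bases after a start site, were at hand for 8 of the 10 members, with 13 windows among them. RELB and NFKBIE had none. The windows were searched on both strands for the NF-κB consensus decamer, which opens with a run of G and a purine, has any base and then A or T in its middle, and closes with pyrimidines and a pair of C. A match was found in 7 of these 8 members and in 9 of the 13 windows. Of all 35116 windows of this length, 5.91% held a match, and of all 27305 genes with a window, 7.09% had one in any of theirs. A looser pattern of 3 G, any 5 bases and 2 C, which takes in every consensus match, was in all 13 windows and in 58.7% of all windows. A match is a description of the letters and not a proof of binding. RELA was the member without a consensus match in either of its windows, which says only that these letters are not there. The windows shown are those of the members with the largest log2 fold changes from Ctrl to DdBIC. These are TNFAIP3 on chr6:137867009-137867308 (plus strand), BIRC3 on chr11:102317234-102317533 (plus strand) and NFKBIA on chr14:35404700-35404999 (minus strand). With them stand a window of NFKB2 on chr10:102394328-102394627 (plus strand), the subunit gene with the most matches, and one of RELA on chr11:65663808-65664107 (minus strand) for contrast. They are written 5′ to 3′ on the strand of the gene, and capitals mark the consensus matches.
TNFAIP3 promoter: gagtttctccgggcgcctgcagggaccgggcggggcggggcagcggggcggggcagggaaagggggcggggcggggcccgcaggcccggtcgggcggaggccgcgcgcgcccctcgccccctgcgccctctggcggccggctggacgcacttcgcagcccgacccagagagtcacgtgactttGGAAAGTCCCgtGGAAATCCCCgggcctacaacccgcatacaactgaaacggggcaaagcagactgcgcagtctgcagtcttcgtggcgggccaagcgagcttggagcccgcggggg
BIRC3 promoter: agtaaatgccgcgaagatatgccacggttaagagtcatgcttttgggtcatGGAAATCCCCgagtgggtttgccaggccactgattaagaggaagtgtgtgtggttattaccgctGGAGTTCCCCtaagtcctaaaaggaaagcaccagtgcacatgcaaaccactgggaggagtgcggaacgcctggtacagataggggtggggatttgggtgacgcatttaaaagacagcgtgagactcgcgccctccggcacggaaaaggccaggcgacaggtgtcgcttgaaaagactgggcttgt
NFKBIA promoter: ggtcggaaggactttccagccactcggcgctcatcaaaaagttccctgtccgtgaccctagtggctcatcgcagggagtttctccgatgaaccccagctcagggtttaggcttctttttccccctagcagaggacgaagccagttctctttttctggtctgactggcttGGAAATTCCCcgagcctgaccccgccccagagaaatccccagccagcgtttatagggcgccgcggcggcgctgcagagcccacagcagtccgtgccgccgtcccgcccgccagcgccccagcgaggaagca
NFKB2 promoter at the second start site: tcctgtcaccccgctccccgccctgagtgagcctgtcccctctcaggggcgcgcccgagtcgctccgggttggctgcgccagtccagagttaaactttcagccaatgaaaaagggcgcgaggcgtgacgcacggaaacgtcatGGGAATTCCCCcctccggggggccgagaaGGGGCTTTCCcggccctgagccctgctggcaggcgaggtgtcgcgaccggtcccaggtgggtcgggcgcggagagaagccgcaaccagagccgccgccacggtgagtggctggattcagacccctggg
RELA promoter at the first start site: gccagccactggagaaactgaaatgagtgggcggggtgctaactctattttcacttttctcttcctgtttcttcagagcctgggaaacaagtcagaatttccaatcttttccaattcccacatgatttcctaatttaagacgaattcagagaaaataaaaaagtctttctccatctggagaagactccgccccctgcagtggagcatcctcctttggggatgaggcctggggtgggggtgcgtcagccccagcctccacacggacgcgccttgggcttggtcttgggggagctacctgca
In TNFAIP3 the matches GGAAAGTCCC and GGAAATCCCC begin 67 and 55 bases before the start site and lie close together. In BIRC3 the matches begin 199 and 135 bases before it, and GGAAATCCCC is shared letter for letter with TNFAIP3. NFKBIA has GGAAATTCCC at 81 bases before the start. In the window of NFKB2, the run of capitals that begins 107 bases before the start holds overlapping matches, and GGGGCTTTCC follows at 78. Of the windows not shown, NFKB1 has GGGAATTTCC at 49 bases before its first start, and NFKBIZ has the same letters at 223 bases before its first start. REL has GGGAAATTCC at 47 bases before its start.

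DdBIC was given to ask what it does to the cells' expression programme. By log2 fold change from Ctrl, though not by level, the feedback genes stood highest among the members. TNFAIP3 (ENSG00000118503, GRCh38 chromosome 6, 137867188 to 137883312), the gene of A20, was at 3.90, 3.78 and 4.07 CPM in the Ctrl libraries and at 223, 185 and 205 CPM in the DdBIC libraries. It was at 4.50, 4.55 and 3.76 CPM with hemin and at 10.4, 7.68 and 9.46 CPM with both. The DdBIC libraries thus lay far above all others, and the libraries with both agents lay between them and the remaining 6. TNFAIP3 was 52.2-fold higher in DdBIC than in Ctrl (log2 fold change 5.71, SE 0.13), which placed it at rank 14 of 14287 genes, and 22.2-fold lower in DdBIC+Hemin than in DdBIC. Its annotation shares 95 exon bases with the antisense gene AL357060.1, and the use of strand in the counting is not given in the sources used here.
BIRC3 (ENSG00000023445, chromosome 11, 102317450 to 102339403) encodes cIAP2, a ubiquitin ligase that acts with TRAF2 below the TNF receptor and restrains cell death. It was barely counted in Ctrl, with 26, 43 and 45 reads or 0.645, 1.08 and 1.15 CPM. With DdBIC it was at 39.3, 31.8 and 38.2 CPM, with hemin at 1.04, 0.668 and 1.12 CPM, and with both at 2.89, 2.76 and 2.80 CPM. As for TNFAIP3, the libraries with both agents lay between those of DdBIC and the remaining 6. BIRC3 was 37.9-fold higher in DdBIC than in Ctrl (log2 fold change 5.24, SE 0.21, rank 21) and 12.9-fold lower in DdBIC+Hemin than in DdBIC. On the log2(TPM + 0.5) scale, which uses the authors' level per length and understates changes of low genes, the difference from Ctrl to DdBIC was 4.

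**Figure D1:**
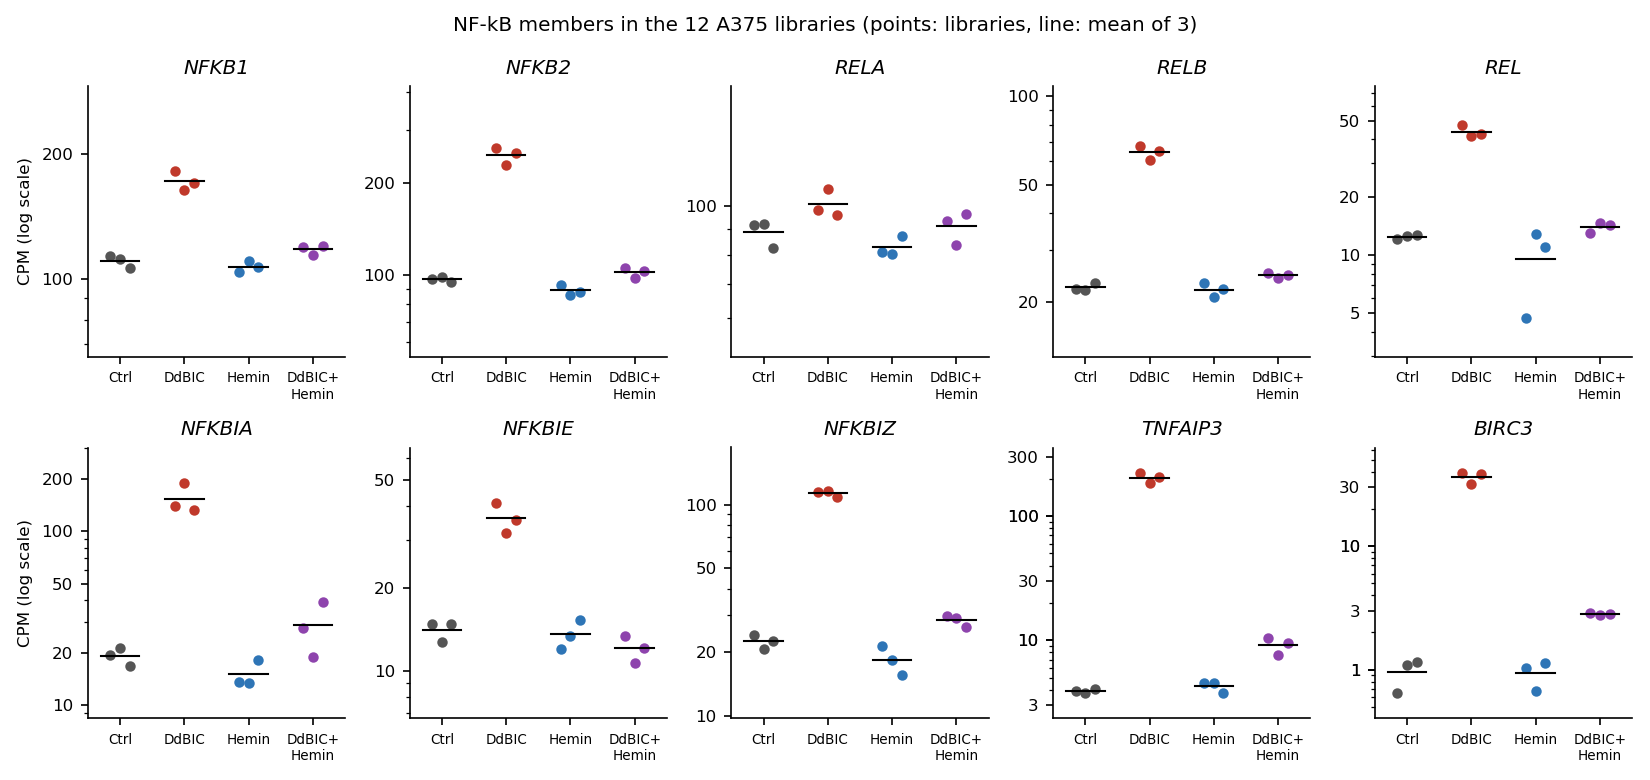
Level of the 10 members in CPM (y axis, log scale, a range of its own in each panel) in the 4 groups of 3 libraries (x axis), with points for libraries and lines for the mean. In all 10 panels the 3 DdBIC libraries lie above the 3 Ctrl libraries.

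The IκB genes had smaller log2 fold changes from Ctrl to DdBIC than the feedback genes. That of NFKBIE lay also below those of the subunit genes REL and RELB. NFKBIA (ENSG00000100906, chromosome 14, 35401511 to 35404746) encodes IκBα, the inhibitor that NF-κB resynthesises fastest. It was at 19.4, 21.3 and 16.8 CPM in Ctrl, 140.2, 190 and 132 CPM with DdBIC, 13.5, 13.4 and 18.1 CPM with hemin, and 27.8, 18.8 and 39.3 CPM with both. The libraries with both agents were widely spread, and the lowest of them fell among the Ctrl libraries. NFKBIA was 8.05-fold higher in DdBIC than in Ctrl (log2 fold change 3.01, SE 0.27) and 5.38-fold lower in DdBIC+Hemin than in DdBIC.
NFKBIZ (ENSG00000144802, chromosome 3, 101827991 to 101861022) encodes IκBζ, a nuclear IκB that helps p50 switch on a subset of inflammatory genes. Its levels were 24.2, 20.7 and 22.7 CPM in Ctrl, 115, 117 and 109 CPM with DdBIC, 21.3, 18.3 and 15.6 CPM with hemin, and 29.5, 29.2 and 26.4 CPM with both. All 3 libraries with both agents lay above all Ctrl and hemin libraries. NFKBIZ was 5.05-fold higher in DdBIC than in Ctrl (log2 fold change 2.34, SE 0.10) and 4.01-fold lower in DdBIC+Hemin than in DdBIC.
NFKBIE (ENSG00000146232, chromosome 6, 44258166 to 44265788) encodes IκBε, a slower inhibitor of the classical dimers. It was at 14.8, 12.7 and 14.8 CPM in Ctrl, 41.1, 32.0 and 35.6 CPM with DdBIC, 11.99, 13.4 and 15.3 CPM with hemin, and 13.4, 10.7 and 12.1 CPM with both. Here the libraries with both agents overlapped those of Ctrl and of hemin. NFKBIE was 2.56-fold higher in DdBIC than in Ctrl (log2 fold change 1.36, SE 0.12) and 3-fold lower in DdBIC+Hemin than in DdBIC.

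Among the subunits the differences were uneven. RELB (ENSG00000104856, chromosome 19, 45001430 to 45038198), the partner of p52 in the alternative pathway, was at 22.1, 22.01 and 23.1 CPM in Ctrl and at 67.6, 60.6 and 65.2 CPM with DdBIC. With hemin it was at 23.2, 20.8 and 22.03 CPM, and with both at 25.0, 24.1 and 24.7 CPM. NFKB2 (ENSG00000077150, chromosome 10, 102394110 to 102402529), the gene of p100, was at 97.1, 98.2 and 94.8 CPM in Ctrl, 261, 229.9 and 251 CPM with DdBIC, 92.7, 86.1 and 88.0 CPM with hemin, and 106, 97.5 and 103 CPM with both. Both genes of the alternative pathway therefore stood at more than double their Ctrl level in every DdBIC library. The fold from Ctrl to DdBIC was 2.88 for RELB (log2 fold change 1.53, SE 0.054) and 2.56 for NFKB2 (log2 fold change 1.36, SE 0.05). From DdBIC to DdBIC+Hemin, RELB was 2.62-fold and NFKB2 2.43-fold lower.
REL (ENSG00000162924, chromosome 2, 60881521 to 60931610), the gene of c-Rel, was at 12.1, 12.5 and 12.7 CPM in Ctrl, 47.4, 41.6 and 42.7 CPM with DdBIC, 4.73, 12.9 and 10.98 CPM with hemin, and 13.0, 14.7 and 14.4 CPM with both. One hemin library, with 187 counts against 420 and 521 in the other two, stood well below its group. REL was 3.53-fold higher in DdBIC than in Ctrl (log2 fold change 1.82, SE 0.28) and 3.13-fold lower in DdBIC+Hemin than in DdBIC. Its annotation shares 5702 exon bases with the non-coding gene AC010733.2 on the same strand. The length behind its FPKM, scaled to the library median, differed 1.84-fold between libraries and was shortest in that hemin library, while the median gene differed 1.09-fold. The level of REL is uncertain to that extent.
NFKB1 (ENSG00000109320, chromosome 4, 102501329 to 102617302), the gene of p105, was at 114, 112 and 106 CPM in Ctrl, 182, 164 and 170.2 CPM with DdBIC, 104, 111 and 107 CPM with hemin, and 119.5, 114 and 120.5 CPM with both. RELA (ENSG00000173039, chromosome 11, 65653596 to 65663094), the gene of p65 and the main activating subunit, was at 91.5, 92.2 and 82.4 CPM in Ctrl, 98.2, 108 and 96.0 CPM with DdBIC, 81.1, 80.2 and 87.4 CPM with hemin, and 93.2, 83.5 and 96.6 CPM with both. RELA was the member with the smallest difference, and its libraries with both agents overlapped those of DdBIC. The fold from Ctrl to DdBIC was 1.56 for NFKB1 (log2 fold change 0.64, SE 0.045) and 1.14 for RELA (log2 fold change 0.18, SE 0.068). NFKB1 was 1.46-fold and RELA 1.11-fold lower in DdBIC+Hemin than in DdBIC.
At an adjusted p under 0.05 in edgeR's quasi-likelihood test, 9 of the 10 members counted as higher in DdBIC against Ctrl. Of all tested genes, 20.0% did so. RELA was the exception among the members. With DESeq2, with at least 10 counts in every sample, and without DdBIC+Hemin replicate 2 or 3, RELA was past the threshold too. All 10 had DdBIC libraries above the Ctrl libraries with no overlap, as had 25.9% of all tested genes. In DdBIC+Hemin against DdBIC 9 members counted as lower, where 18.4% of the tested genes did. In the same comparison 9 had no overlap between the libraries, against 24.4% of all genes. Nothing is read from these counts, because the members were chosen with results of these libraries in view, and both comparisons share the DdBIC libraries. The difference between the DdBIC effects with and without hemin was below 0 past the threshold for 8 members, where 10.2% of all tested genes had such a difference. RELA was not past it in any of 19 alternatives, whereas REL was past it in 4 of 19, among them DESeq2 and the fit without Hemin replicate 1. The median log2 fold change of the members was 1.67 in the first comparison and -1.62 in the second, and over all tested genes -0.0082 and -0.010.

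Hemin alone was compared with Ctrl to see whether it moves these genes without DdBIC. None of the 10 members passed the threshold (edgeR, 0 of 10), where 4.06% of all tested genes did, and the count was also 0 with DESeq2 and with limma. At an unadjusted p under 0.05 there were 2, NFKBIZ and NFKB2, both lower with hemin, where 16.7% of all tested genes were under it in either direction. The log2 fold change of NFKBIZ was -0.29 (95% interval -0.52 to -0.064, edgeR adjusted p = 0.15), and without Hemin replicate 1 it was -0.41 (edgeR adjusted p = 0.0376). That of NFKB2 was -0.12 (95% interval -0.23 to -0.0067, edgeR adjusted p = 0.242), and its 3 hemin libraries lay below its 3 Ctrl libraries, as did those of 12.9% of all tested genes. For TNFAIP3 the value was 0.13 (95% interval -0.16 to 0.41) and for RELA -0.098 (95% interval -0.25 to 0.058). The intervals were wide for REL (-1.02 to 0.25) and NFKBIA (-0.96 to 0.25), so a moderate change in those genes was not detectable with these libraries. Without Hemin replicate 1 the value for REL was -0.061, against -0.39 with it.

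Comparison of DdBIC+Hemin with Hemin gave the effect of DdBIC in cells that had hemin. It is a term of the difference of effects described above, so its calls are not independent evidence. Here 4 of the 10 members were higher past the threshold, where 3.71% of all tested genes were, and 0 were lower. BIRC3 rose by 1.58 on the log2 scale (SE 0.21, edgeR adjusted p = 0.00108), TNFAIP3 by 1.10 (SE 0.12, edgeR adjusted p = 0.000294), NFKBIZ by 0.63 (SE 0.099, edgeR adjusted p = 0.00343) and NFKB2 by 0.20 (SE 0.049, edgeR adjusted p = 0.0362). In each of these the 3 libraries with both agents lay above the 3 with hemin. The size for BIRC3 depends on its low level with hemin, and on the log2(TPM + 0.5) scale it was 0.70. The call on NFKB2 was not kept in 10 of 20 alternatives, where its adjusted p reached 0.126. Of the rest, NFKBIA had a log2 fold change of 0.94 (SE 0.26) that missed the threshold (edgeR adjusted p = 0.0717), and passed it without DdBIC+Hemin replicate 2 (edgeR adjusted p = 0.0187) and with DESeq2 (adjusted p = 0.0085). For REL the value was 0.56 (SE 0.28, edgeR adjusted p = 0.301), and 0.23 without Hemin replicate 1, its low library. For RELB it was 0.16 (SE 0.054, edgeR adjusted p = 0.117), for NFKB1 0.14 (SE 0.044, edgeR adjusted p = 0.0997) and for RELA 0.14 (SE 0.068, edgeR adjusted p = 0.295). NFKBIE pointed the other way with -0.17 (95% interval -0.45 to 0.11, edgeR adjusted p = 0.494). Of the 10 members, 8 had libraries with both agents above those with hemin and no overlap, as had 13.2% of all tested genes.
Set beside each other as amounts, the rise of mean TNFAIP3 from Ctrl to DdBIC was 201 CPM and that from Hemin to DdBIC+Hemin 4.92 CPM, or 2.45% of it. The share was 5.28% for BIRC3, 6.11% for RELB, 8.70% for NFKB2, 10.1% for NFKBIA, 11% for NFKBIZ, 14.3% for REL and 17.4% for NFKB1. RELA, whose rise without hemin was only 12.1 CPM, had 68.0%. For NFKBIE the level with both was below that with hemin, which gives -6.90%. These shares divide by the rise from Ctrl to DdBIC, which may have been in view when the members were chosen, and are a description. Leaving out 1 library at a time, a check added after the data were seen, gave 2.14% to 2.83% for TNFAIP3, 4.90% to 5.54% for BIRC3 and 4.68% to 7.54% for RELB, so BIRC3 and RELB are not ordered. The share of REL ran from 6.70% without Hemin replicate 1 to 19.7% without Hemin replicate 2. That of NFKBIA ran from 6.19% without DdBIC+Hemin replicate 3 to 13.8% without DdBIC+Hemin replicate 2. That of RELA ran from 45.2% without DdBIC+Hemin replicate 3 to 99.6% without DdBIC+Hemin replicate 2. That of NFKBIE was -10.5% without Hemin replicate 1 and -2.95% without Hemin replicate 3.

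DdBIC+Hemin against Ctrl showed how near the members came to the Ctrl level. Only TNFAIP3 (log2 fold change 1.23, SE 0.12, edgeR adjusted p = 7.23e-05) and BIRC3 (1.55, SE 0.21, edgeR adjusted p = 0.000635) were past the threshold of the 10 members, both higher, where 5.66% of all tested genes were higher. For 6 of the 10 the libraries with both agents lay above those of Ctrl with no overlap, as for 15.3% of all tested genes. On the log2(TPM + 0.5) scale the value for BIRC3 was 0.73. NFKBIZ stood at the edge with 0.33 (SE 0.099, edgeR adjusted p = 0.0501) and was past it in 7 of 20 alternatives. The 95% interval was -0.0079 to 0.20 for NFKB1, -0.036 to 0.19 for NFKB2 and -0.12 to 0.19 for RELA, so these 3 were within 0.20 of Ctrl on the log2 scale by their intervals. It was 0.011 to 0.26 for RELB, whose libraries did not overlap (edgeR adjusted p = 0.14). Wider intervals were those of NFKBIE (-0.51 to 0.053), REL (-0.46 to 0.81) and NFKBIA (-0.015 to 1.18), for which a difference from Ctrl of moderate size was not detectable.

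**Figure D2:**
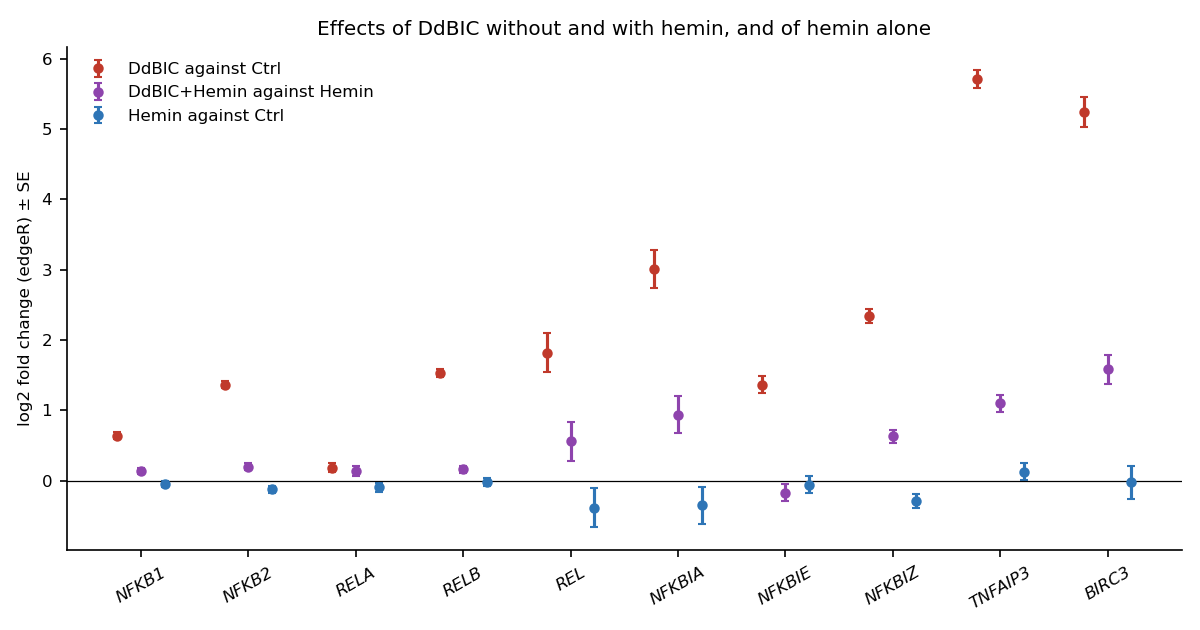
Log2 fold change of the 10 members with its SE (y axis) in DdBIC against Ctrl (red), DdBIC+Hemin against Hemin (purple) and Hemin against Ctrl (blue). TNFAIP3 goes from 5.71 without hemin to 1.10 with it, and hemin alone stays between -0.39 (REL, -0.061 without Hemin replicate 1) and 0.13 (TNFAIP3).

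Levels of different genes were compared in TPM, the authors' value per length. In Ctrl the order was RELA (85.5 ± 7.51 TPM, SD, n = 3), NFKB2 (68.2 ± 0.825), NFKB1 (64.1 ± 0.881), NFKBIA (26.1 ± 2.36), RELB (21.4 ± 1.29), NFKBIZ (13.7 ± 0.798), NFKBIE (12.8 ± 0.971), REL (2.91 ± 0.209), TNFAIP3 (2.49 ± 0.354) and BIRC3 (0.466 ± 0.0476). Of the neighbours in this order, NFKBIZ and NFKBIE overlapped between libraries, and so did REL and TNFAIP3. In DdBIC the order was NFKBIA (213 ± 43.4 TPM, SD, n = 3), NFKB2 (176 ± 11.6), TNFAIP3 (125 ± 12.5), NFKB1 (97.7 ± 6.53), RELA (95.1 ± 12.1), NFKBIZ (76.9 ± 20.4), RELB (63.0 ± 4.22), NFKBIE (35.0 ± 2.63), BIRC3 (15 ± 1.40) and REL (10 ± 1.13). TNFAIP3 thus went from the place next to last to the third, and RELA from the first to the fifth. In DdBIC the libraries of NFKBIA and NFKB2 overlapped, as did those of NFKB1 and RELA, of RELA and NFKBIZ, and of NFKBIZ and RELB. With both agents the order was again led by RELA (90.4 ± 7.41), NFKB2 (69.9 ± 2.78) and NFKB1 (66.0 ± 2.74), as it was with hemin alone.
The make-up of the subunit transcripts shifted accordingly. RELA made up 34.0% to 37.9% of the summed TPM of the 5 subunits in Ctrl and 19.5% to 25.0% in DdBIC. The share of NFKB2 was 27.3% to 28.7% in Ctrl and 37.6% to 41.5% in DdBIC, and that of RELB 8.23% to 9.48% and 13.4% to 14.9%. With hemin and with both, RELA was at 35.0% to 38.7% and 34.5% to 36.7%. The sum of the 3 IκB genes was 0.211 to 0.227 of the subunit sum in Ctrl libraries, 0.643 to 0.914 of it in DdBIC, 0.182 to 0.199 in Hemin and 0.218 to 0.315 in DdBIC+Hemin. The 3 DdBIC libraries lay above all others in this ratio. These sums describe RNA and not protein, and they leave out the IκB-like activity of p100 and p105. The IκB sum covers only the IκB genes among the members and leaves out others, such as NFKBIB, NFKBID and BCL3. It is therefore not a measure of all IκB transcripts against the subunits. The DdBIC and Ctrl values in these sums may have been in view when the members were chosen, so the shares and ratios are a description. NFKBIZ weighs on the IκB sum with a length behind its FPKM that differed 1.59-fold between libraries. For BIRC3, whose TPM stands in the order given, that length differed 2.05-fold.

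**Figure D3:**
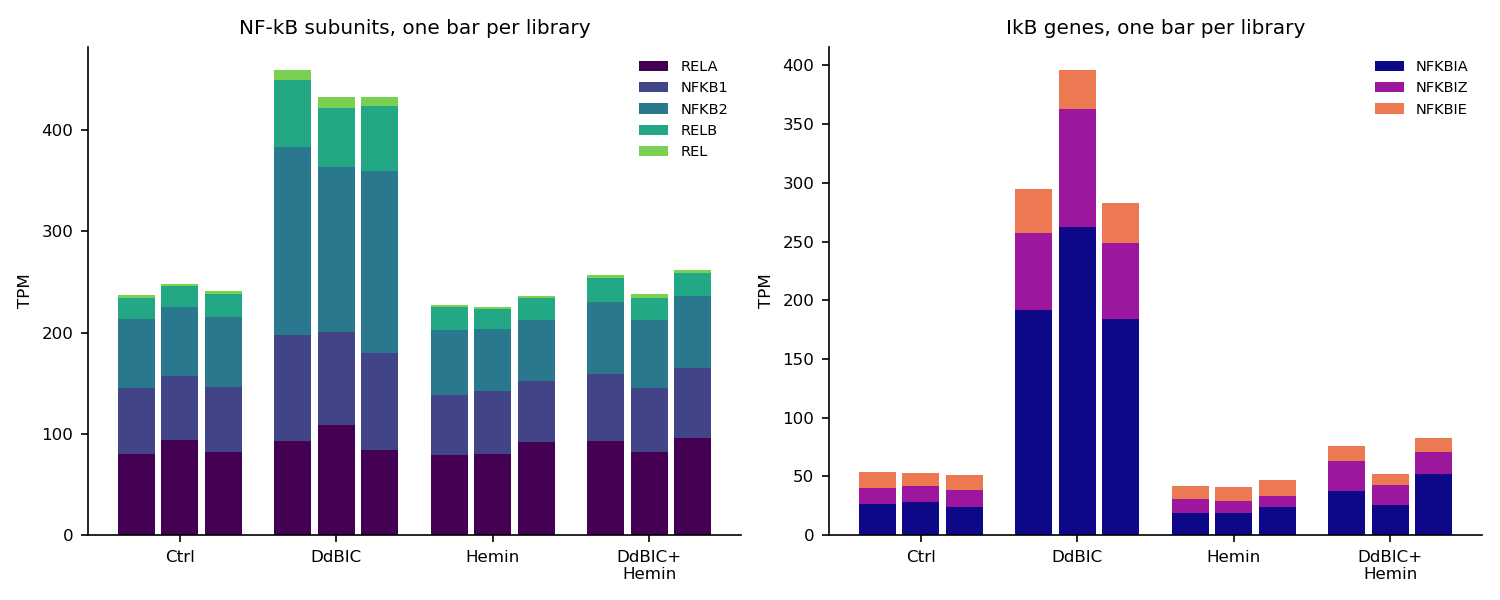
TPM of the 5 subunit genes (left) and of the 3 IκB genes among the members (right), stacked in one bar per library on the x axis. The subunit sum is 237 to 248 TPM in Ctrl and 433 to 459 in DdBIC, and the IκB sum 51.0 to 53.8 and 283 to 396.

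Other genes of the pathway were taken from 4 lists written from general knowledge and leaving out the members. The lists were made with earlier results of these libraries known, so their counts and p-values are not independent evidence of a direction. The target list holds genes long described as switched on by NF-κB. Of its 32 genes 28 were tested, of which 21 rose and 1 fell in DdBIC against Ctrl, with a median log2 fold change of 1.49. Among all tested genes 20.0% rose and 17.2% fell. The naming rule picked TNFRSF9, CSF2 and NUAK2 by fitted log2 fold change, which for TNFRSF9 and CSF2 rests on very few Ctrl reads. NUAK2, a kinase induced downstream of NF-κB and of other signals, was at 6.83 to 7.98 CPM in Ctrl and 120 to 136 CPM with DdBIC (log2 fold change 4.07, SE 0.088, edgeR adjusted p = 1.66e-10). CSF2, the gene of the cytokine GM-CSF, had 4 to 8 counts in Ctrl and 195 to 245 with DdBIC (log2 fold change 5.25, SE 0.36, edgeR adjusted p = 9.09e-07). With so few Ctrl counts the size of this fold change is uncertain. TNFRSF9, the gene of the receptor 4-1BB, had 0, 0 and 11 counts in Ctrl and 174 to 209 with DdBIC, too few in Ctrl for a fold change. TAP1, a peptide transporter of antigen presentation, was the gene that fell (-0.19, SE 0.055, edgeR adjusted p = 0.0175). In DdBIC+Hemin against Hemin 6 of the 28 rose and 1 fell, against 3.71% and 3.09% of all genes, with a median of 0.15. Those with the largest rises were PTGS2, the cyclooxygenase gene (1.14, SE 0.18, edgeR adjusted p = 0.0031), IER3, an early response gene of survival (0.66, SE 0.05, edgeR adjusted p = 2.32e-05), and TRIB1, a pseudokinase gene (0.41, SE 0.047, edgeR adjusted p = 0.00041). BCL2L1, the gene of BCL-XL, fell (-0.16, SE 0.029, edgeR adjusted p = 0.00717).
Of 16 other IκB genes and brakes 15 were tested, and 8 rose and 1 fell in DdBIC against Ctrl, with a median of 0.46, against the same 20.0% and 17.2%. ZC3H12A, the gene of the RNase regnase-1 that degrades inflammatory mRNAs, rose by 2.95 on the log2 scale (SE 0.069, edgeR adjusted p = 2.02e-10). TRAF1, an adaptor of TNF receptors, rose by 2.48 (SE 0.16, edgeR adjusted p = 4.69e-07), and BCL3, a nuclear IκB, by 1.15 (SE 0.059, edgeR adjusted p = 7.92e-08). PDLIM2, which promotes the breakdown of p65, fell (-0.43, SE 0.056, edgeR adjusted p = 0.000124). In DdBIC+Hemin against Hemin, where 3.71% of all tested genes rose, 5 of the 15 rose, among them TRAF1 (0.71, SE 0.16, edgeR adjusted p = 0.0187), ZC3H12A (0.44, SE 0.066, edgeR adjusted p = 0.0024) and NFKBID (0.24, SE 0.062, edgeR adjusted p = 0.0421), and 0 fell. BCL3 had a value of 0.027 there.
Of the 26 genes of IKK and its adaptors 10 rose and 5 fell in DdBIC against Ctrl, where 20.0% of all tested genes rose and 17.2% fell, with a median of 0.054. Here too the share that fell is near that of all genes. IRAK2, a relay of interleukin-1 and Toll-like receptors, rose by 2.67 (SE 0.11, edgeR adjusted p = 1.71e-08). BCL10, an adaptor of the CARD pathway, rose by 0.80 (SE 0.088, edgeR adjusted p = 3.25e-05). MAP3K14, the gene of NIK that drives the alternative pathway, rose by 0.94 (SE 0.29, edgeR adjusted p = 0.0309), but 1 DdBIC library was at 40.2 CPM and the others at 80.6 and 86.7. Adaptor genes that fell were TRADD (-0.40, SE 0.12, edgeR adjusted p = 0.0214), TAB1 (-0.33, SE 0.039, edgeR adjusted p = 5.11e-05) and CARD10 (-0.26, SE 0.044, edgeR adjusted p = 0.000731). With hemin present, where 3.71% of all tested genes rose and 3.09% fell, 1 gene, IRAK2, rose (0.57, SE 0.11, edgeR adjusted p = 0.0106) and 2 fell, CARD10 (-0.21, SE 0.044, edgeR adjusted p = 0.015) and RBCK1 (-0.16, SE 0.04, edgeR adjusted p = 0.036). The share that rose there is near that of all genes. CARD10 was higher with hemin alone than in Ctrl (0.37, SE 0.044, edgeR adjusted p = 0.000899). With both agents CARD10 was still above Ctrl (0.16, SE 0.044, edgeR adjusted p = 0.0343).
Ligands and receptors were mixed. Of 21 genes 17 were tested, and 6 rose and 3 fell in DdBIC against Ctrl, with a median of -0.056, against 20.0% and 17.2% of all tested genes. The share that fell is near that of all genes. TNF, the cytokine that is both a trigger and a product of NF-κB, had 0, 2 and 2 counts in Ctrl, 260 to 303 with DdBIC, 0 in every hemin library and 0 to 4 with both. With a Ctrl level this low no fold change is given. The interleukin genes IL1A and IL1B rose by 1.64 (SE 0.26, edgeR adjusted p = 0.000542) and 1.53 (SE 0.22, edgeR adjusted p = 0.000275), each to no more than 3.08 CPM. TNFRSF21, the gene of the death receptor DR6, fell (-0.79, SE 0.027, edgeR adjusted p = 3.26e-09), as did TLR6 (-0.55, SE 0.19, edgeR adjusted p = 0.0462) and NGFR (-0.23, SE 0.035, edgeR adjusted p = 0.000356). In DdBIC+Hemin against Hemin 2 of the 17 rose and 1 fell, against the same 3.71% and 3.09%. TNFRSF12A, the receptor of TWEAK, rose by 0.26 (SE 0.042, edgeR adjusted p = 0.00409) and TLR4 by 0.13 (SE 0.036, edgeR adjusted p = 0.0481), while TNFRSF21 fell (-0.27, SE 0.027, edgeR adjusted p = 0.000156).
In DdBIC+Hemin against DdBIC the numbers that rose and fell were 2 and 20 of the 28 targets, 1 and 9 of the 15 brakes, 3 and 12 of the 26 IKK and adaptor genes, and 4 and 6 of the 17 ligands and receptors, where 13.5% of all tested genes rose and 18.4% fell. In Hemin against Ctrl they were 1 and 1, 0 and 0, 1 and 1, and 1 and 1, in the same order of lists, where 4.06% of all tested genes passed in either direction.

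**Figure D4:**
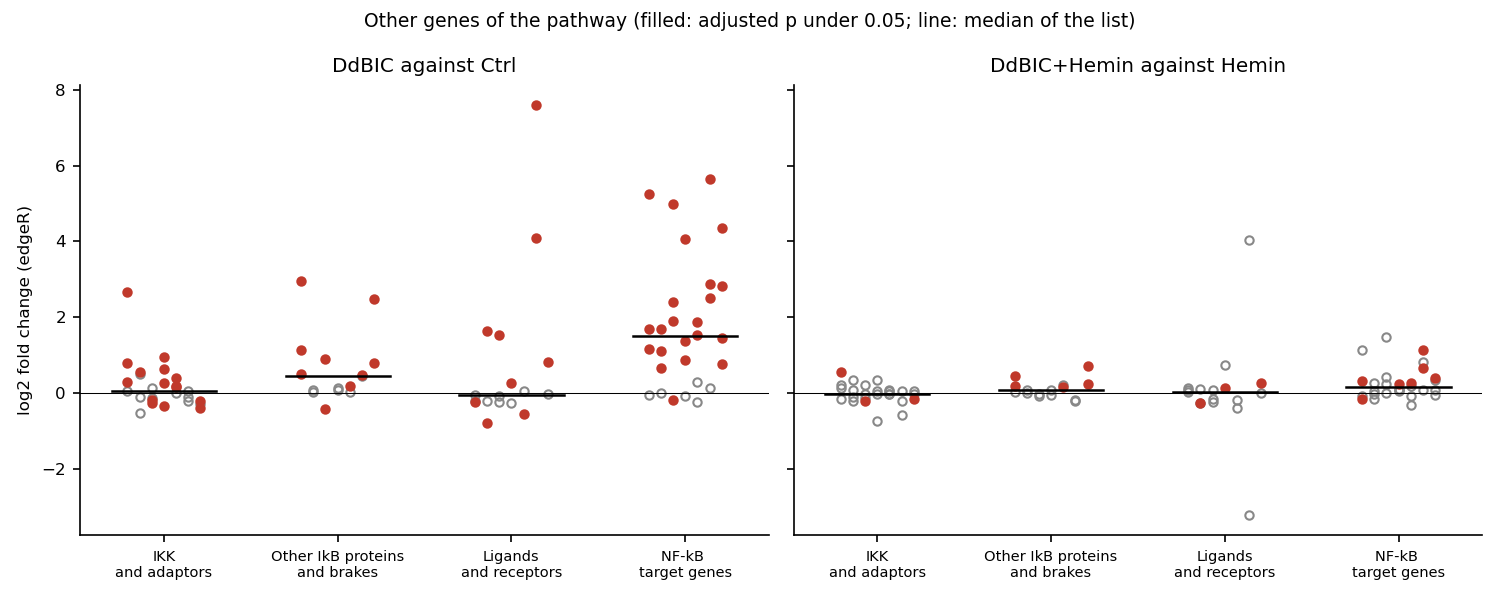
Log2 fold change (y axis) of each tested gene in the 4 pathway lists (x axis) in DdBIC against Ctrl (left) and in DdBIC+Hemin against Hemin (right), with filled points for an adjusted p under 0.05 and lines for the median. The median of the target genes is 1.49 on the left and 0.15 on the right.

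The genes outside the list with the most similar pattern over the 12 libraries were sought by the Pearson correlation of log2 CPM, in the 10668 genes whose mean reached 5 CPM. The 12 libraries share their 4 groups, so these are descriptions of a shared group pattern. For TNFAIP3 the 5 closest were OGT, ZC3H12A, IER3, ZBTB11 and JUNB, all with r of 0.997. For NFKB2 they were CXCL1, EGR3, CLK1, MCL1 and TNFAIP2, with r from 0.994 to 0.997. For RELA the closest included TCF25, CSNK1E, KIAA0556 and IQGAP3, with r from 0.911 to 0.922, so its pattern was matched less closely. Among the members themselves, the 9 lowest of the 45 correlations all involved RELA, from 0.667 with NFKBIE to 0.867 with NFKBIA.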

How the data were processed

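RNA-seq of total RNA from 12 A375 samples, in 4 groups of 3 by their treatment label, was used as one table. Per the labels, Trim Galore, Subread and featureCounts and the build hg38 were used, with no versions or strand setting. The authors deposited raw read counts per gene. They also deposited TPM values, scaled by length to one sum per library, and FPKM values, scaled by length and depth, which served to compare levels between genes and to check lengths. The test on the counts was that of edgeR 4.0.16, run in R 4.3.3 (filterByExpr, TMM, robust quasi-likelihood fit with 1 mean per group, 8 residual degrees of freedom, F test, Benjamini-Hochberg adjustment over 14287 genes, threshold 0.05). Standard errors divide the log2 fold change by the square root of F, and 95% intervals use the t distribution with 8 degrees of freedom. The alternatives were DESeq2 1.42.0, other scaling factors and filters, fits of only the groups compared, a replicate block, leaving out each library, limma 3.58.1 on log2(TPM + 0.5), and a minimum change. The steps were tested on simulated data. The members and lists were chosen with earlier results of these data known. Up to 3 rises and 3 falls were named per list and comparison, if past the threshold, without overlap between libraries and with a mean CPM of 1 or more. Of the 10 members, 9 had the same start and end in GENCODE 29. Some genes are not reported here.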

Additional observations from a re-analysis of the deposited data

Results flagged for a closer look

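For 8 of the 10 members the difference between the DdBIC effects with and without hemin lay past the threshold, as for 10.2% of all tested genes in the same direction. The members were chosen with results of these libraries in view, among them that of TNFAIP3 in DdBIC against Ctrl, which enters the difference. The values are therefore a description, and nothing is read from the count. On the log2 scale the difference was -4.60 for TNFAIP3, -3.67 for BIRC3, -2.07 for NFKBIA, -1.71 for NFKBIZ, -1.53 for NFKBIE, -1.37 for RELB, -1.16 for NFKB2 and -0.50 for NFKB1. It was -1.26 for REL (SE 0.39) and -0.048 for RELA (SE 0.096), which were not past the threshold. Without Hemin replicate 1, its low library, REL was at -1.58 and past it, as it was in 3 other alternatives.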

How the results depend on the processing

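The count of members past the threshold ranged, over the 12 fits that left out 1 library each, from 9 to 10 in DdBIC against Ctrl, 9 to 9 in DdBIC+Hemin against DdBIC, 0 to 1 in Hemin against Ctrl, 3 to 5 in DdBIC+Hemin against Hemin, 2 to 3 in DdBIC+Hemin against Ctrl and 8 to 9 in the difference of effects. The 1 in Hemin against Ctrl is NFKBIZ without Hemin replicate 1. NFKB2 in DdBIC+Hemin against Hemin lost its call without each Ctrl library, Hemin replicate 2 or 3, or DdBIC+Hemin replicate 1 or 3 (log2 fold change 0.17 to 0.20), and with library size only, limma on TPM or a fit of only the groups compared. Asking also for a change of 1 or more on the log2 scale left 2 members in DdBIC+Hemin against Hemin. For the lists in DdBIC against Ctrl it left 1 gene of IKK and adaptors, 3 brakes and 4 ligands and receptors, and in DdBIC+Hemin against Hemin 0, 0, 0 and 1 (targets). With library size only, 3 brakes were past the threshold in the latter. With upper-quartile factors the median of all genes moved by -0.061 in DdBIC against Ctrl. The replicate numbers were not taken as pairs in the main fit, as deviations of same-numbered samples correlated at only -0.046 to 0.081 over 18 pairs. Pointing the other way, 8 of 12 libraries correlated best with their own number, a count for which no chance value was worked out. With the replicate block the counts were 9, 9, 0, 4, 3 and 8 in the order above, and NFKBIZ passed in DdBIC+Hemin against Ctrl (edgeR adjusted p = 0.0306). Over the 20 alternatives the adjusted p of NFKBIA in DdBIC+Hemin against Hemin ran from 0.0085 to 0.202 and that of NFKBIZ in Hemin against Ctrl from 0.0376 to 0.355. No member changed direction past the threshold. Depth limits BIRC3 in Ctrl, at 26 to 45 counts.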
